A study of Oryctolagus cuniculus with 16 samples.

Results

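Chemokines are small secreted proteins that steer the movement of white blood cells. The set described here holds the 28 genes, of 29587 in the deposited gene table, whose symbol names a chemokine ligand (12 genes) or a chemokine receptor (16 genes, 3 of them atypical receptors). They were chosen by symbol alone, and CXCL8 and CXCL5 lie outside the set by its rule. Total RNA was sequenced from rabbit (Oryctolagus cuniculus) tibiae 10 days after surgery, in a study of early healing around metal bone implants. In each of 4 rabbits 4 holes were drilled, and the tissue inside each hole was scraped out with a curette and sequenced as 1 library. The groups were a turned copper implant (Turned Cu), a sandblasted, large-grit, acid-etched titanium implant (SLA Ti), a turned titanium implant, commercially pure (Turned Ti), and a drilled hole labelled Sham, with 4 libraries each. Every rabbit carried all 4 kinds of site, so each copper site shared its animal with its controls, and replicate numbers are rabbit numbers. Each kind of site took each of the 4 positions (proximal or distal end, right or left tibia) once. Strain, sex and age of the rabbits are not given in the labels.

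Ligands are made by injured tissue, blood vessels and white blood cells that have already arrived. They bind receptors on passing cells, which signal through G proteins and turn the cell towards the source. Atypical receptors bind the same ligands without that signal and take them out of the tissue. In healing bone the best known of these axes bring neutrophils and monocytes to the wound and hold blood-forming cells in the marrow.

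Library totals ran from 8539984 to 20406474 counts, but most of these fell on ribosomal RNA and the mitochondrial genome, and 1019517 to 4353647 counts lay outside them. The chemokine genes together received 827 to 1914 counts in Turned Cu libraries, 758 to 4011 in SLA Ti, 428 to 1162 in Turned Ti and 123 to 594 in Sham libraries. Ribosomal RNA was the highest in SLA Ti replicate 4 (44.8% of counts), Turned Ti replicate 4 (49.6%) and Sham replicate 2 (65.3%), and at most 28.4% elsewhere. Bone-forming and stromal markers, which define the labelled tissue, were present in every library at 487 to 3054 summed CPM in Turned Cu, 2628 to 16360 in SLA Ti, 9857 to 24260 in Turned Ti and 10520 to 23210 in Sham. SLA Ti replicate 3 stood apart from the other SLA Ti libraries, with neutrophil markers at 3607 summed CPM against 585 to 1974 in those, and for CCR1, CXCR1, CXCR2, CCL4 and the gene lists the comparisons with SLA Ti are also given without it. CPM here are counts relative to the library size after scaling by TMM, a method that assumes most genes do not differ, and the scaling factors ran from 0.251 in Turned Cu replicate 2 to 2.91 in Turned Ti replicate 1. One count was worth 0.127 to 0.195 CPM in Turned Cu libraries, 0.0329 to 0.0762 CPM in SLA Ti, 0.0323 to 0.0829 CPM in Turned Ti and 0.0402 to 0.135 CPM in Sham libraries. A low gene is therefore counted more coarsely beside copper.

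Of the 28 genes, 13 had enough counts to be tested and 15 had not. The filter on low counts used all 16 libraries, so a member may have met it only with the help of the copper libraries. This may hold for XCR1 and CXCL10, which had few counts in most other libraries. For such genes, being tested and being higher beside copper are not independent. The tests below are edgeR quasi-likelihood tests over all 16 libraries, with p-values adjusted by Benjamini and Hochberg over 11617 genes and a threshold of 0.05. Turned Cu against Sham, 4 tested members were higher (CCL2, CCR1, CXCR1 and XCR1), 2 were lower (ACKR2 and CX3CR1) and 7 did not pass, in a comparison in which 42.8% of all tested genes passed. Turned Cu against Turned Ti, 6 were higher (the same 4, CCR7 and CXCL10), 2 were lower (ACKR2 and CX3CR1) and 5 did not pass, beside 40.7% of all tested genes. Against SLA Ti, 4 were higher in Turned Cu (CCL2, CCR1, CXCL10 and XCR1), 1 was lower (ACKR2) and 8 did not pass, beside 31% of all tested genes. By direction, the background was 15.3% higher and 15.7% lower against SLA Ti, 21.1% and 19.6% against Turned Ti and 23.2% and 19.6% against Sham. Every copper library lay above every library of the other group for 5 of the 13 tested members against SLA Ti (13.4% of all tested genes), 5 against Turned Ti (19%) and 4 against Sham (21.8%), and below for 1 against SLA Ti (14.6%), 1 against Turned Ti (16.3%) and 0 against Sham (18.4%). The 3 comparisons share the copper libraries and are not independent of each other. Calls were thus common throughout the table, and with 13 tested members the counts say little about the set as such, so the results below are given gene by gene.

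**Figure D1:**
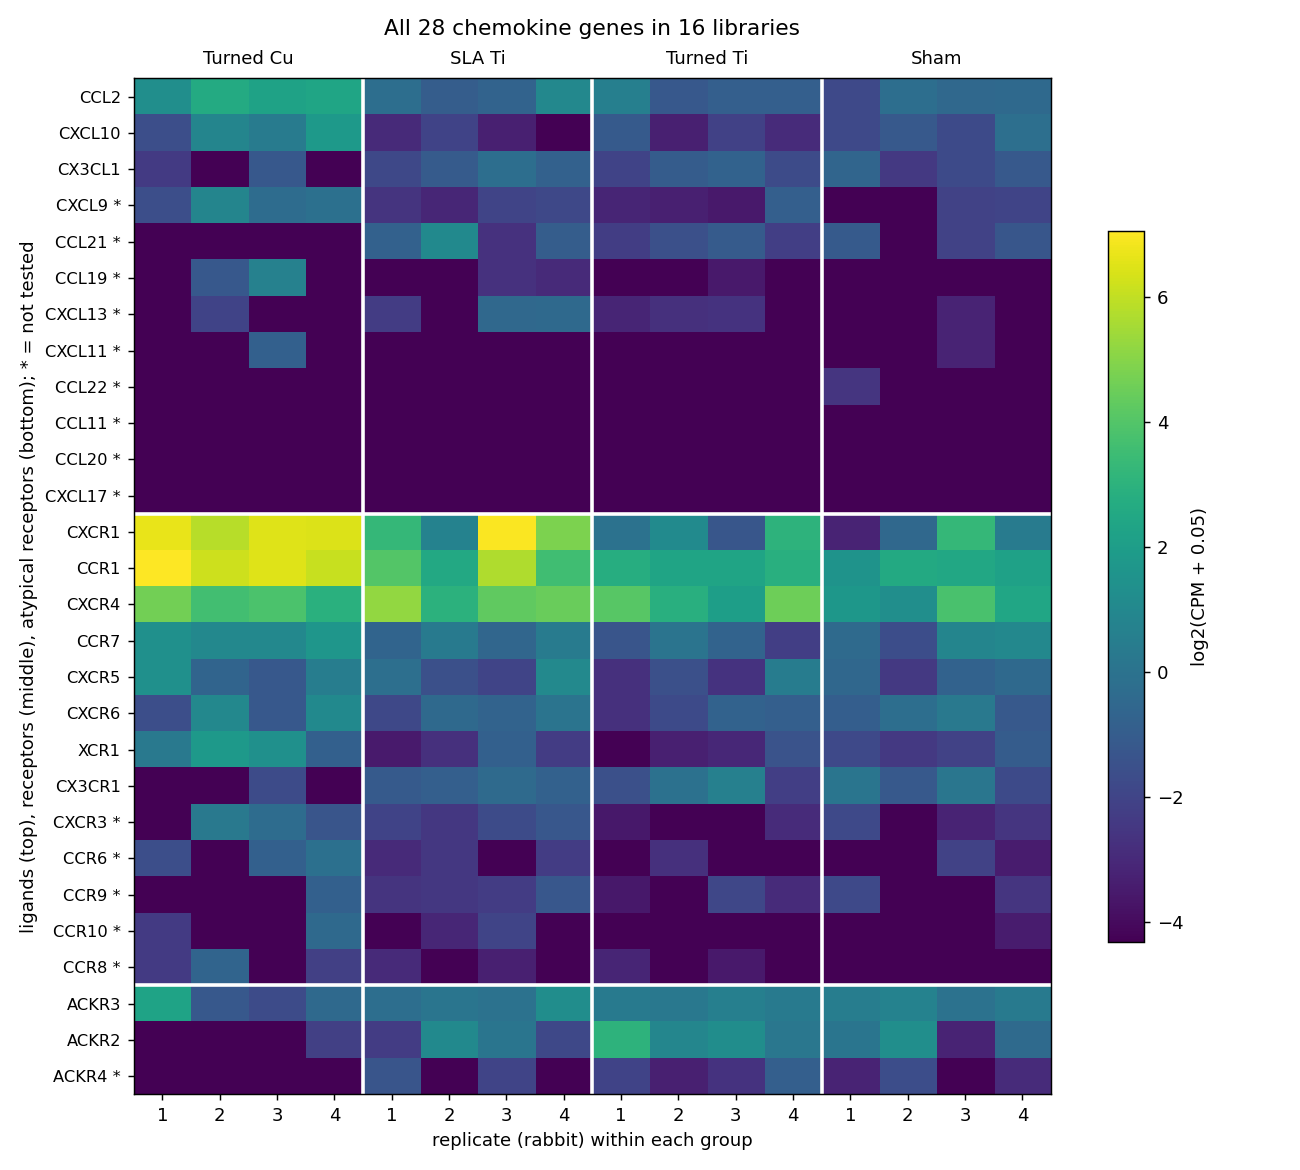
Level of all 28 chemokine genes as log2(CPM + 0.05), with ligands above, receptors in the middle and atypical receptors below, and libraries by group and rabbit from left to right. Stars mark the 15 genes that were not tested. CCR1, CXCR1 and CXCR4 form the bright rows, CCR1 and CXCR1 are brightest in Turned Cu and in SLA Ti replicate 3, and ACKR2, CX3CR1 and CCL21 are dark in Turned Cu.

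Within a library, genes can be compared on the authors' TPM, which divide by transcript length. By median TPM over the 4 libraries, CCR1 came first in Turned Cu (61.3 TPM), followed by CXCR1 (52.0 TPM), CXCR4 (5.42 TPM) and CCL2 (3.19 TPM). In SLA Ti the order was CCR1 (32.5 TPM), CXCR1 (27.0 TPM), CXCR4 (18.7 TPM) and CCL2 (2.77 TPM). CXCR4 led in Turned Ti (10.5 TPM), with CCR1 close behind it (10.2 TPM) and CXCR1 at 2.75 TPM. In Sham, CCR1 (7.00 TPM) and CXCR4 (4.02 TPM) led, followed by ACKR3, CCL2, CXCR1 (1.36 TPM) and CXCL10. Within a library, CCR1 was above CXCR1 in all 4 Turned Ti libraries, and each of the other groups held at least 1 library with CXCR1 above CCR1. Together CCR1, CXCR1 and CXCR4 made up 84.1% to 94.8% of the summed chemokine TPM in Turned Cu libraries, 57.8% to 96.4% in SLA Ti, 51.2% to 84.0% in Turned Ti and 38.7% to 76.0% in Sham libraries. CXCR4 alone took 2.49% to 5.84% in Turned Cu and 6.30% to 42.4% in SLA Ti, 15.7% to 41.0% in Turned Ti and 9.69% to 28.3% in Sham. In the copper libraries the make-up was thus led by CCR1 and CXCR1, with CXCR4 a small share in all 4 rabbits.

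**Figure D2:**
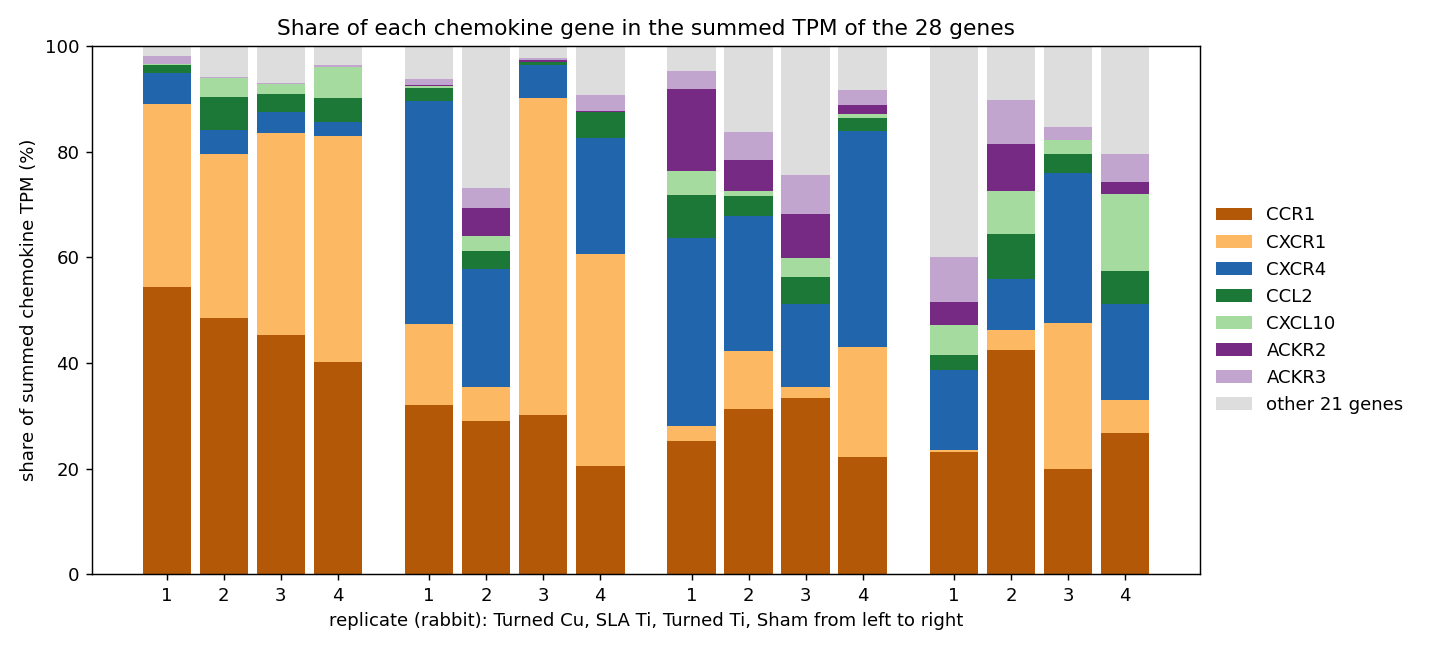
Share (%) of each named gene in the summed TPM of the 28 chemokine genes, 1 bar a library, with the groups from left to right as Turned Cu, SLA Ti, Turned Ti and Sham and the rabbits 1 to 4 within each. CCR1 takes 40.2% to 54.4% in Turned Cu, where CXCR4 takes at most 5.84%, and CXCR1 takes 60.0% in SLA Ti replicate 3.

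Among the ligands, CCL2, which draws monocytes out of blood and marrow, was higher in Turned Cu than in each other group. The gene lies on chromosome 19 from 23720218 to 23722039 in the gene table's coordinates, for which the sources used here name no genome build. Its level was 2.44, 6.24, 4.58 and 5.16 CPM in Turned Cu replicates 1 to 4. It was 0.806, 0.461, 0.565 and 1.90 CPM in SLA Ti, 1.46, 0.394, 0.502 and 0.497 CPM in Turned Ti and 0.238, 0.807, 0.674 and 0.683 CPM in Sham. Every copper library lay above every library of the other 3 groups, and CCL2 was higher beside copper in 4 of 4 rabbits in each comparison. The log2 fold change was 2.34 ± 0.54 against SLA Ti (SE, adjusted p = 0.00422), 2.64 ± 0.54 against Turned Ti (adjusted p = 0.000996) and 2.95 ± 0.56 against Sham (adjusted p = 0.000503). CC ligands resemble each other in sequence, so reads of CCL2 and its neighbours on chromosome 19 may be split between them.

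CXCL10 is an interferon-induced ligand of CXCR3, the receptor of activated T cells. Its CPM were 0.287, 1.76, 1.27 and 3.44 in Turned Cu, 0.0767, 0.197, 0.0514 and 0 in SLA Ti, 0.420, 0.0492, 0.179 and 0.0829 in Turned Ti and 0.238, 0.404, 0.245 and 0.844 in Sham. The copper libraries were above all SLA Ti libraries, while Turned Cu replicate 1 lay within the range of Turned Ti and of Sham. CXCL10 was higher in Turned Cu by a log2 fold change of 4.06 ± 0.85 against SLA Ti (SE, adjusted p = 0.00231) and 3.03 ± 0.79 against Turned Ti (adjusted p = 0.00543). Against Sham the difference of 1.89 ± 0.76 did not pass (adjusted p = 0.0532), and it passed without Turned Cu replicate 1 (2.03, adjusted p = 0.0393) and without Sham replicate 4 (2.32, adjusted p = 0.0471). In the authors' deposited table, CXCL10 in all 4 copper libraries over Sham had a q-value of 0.0485. CXCL10 levels rest on few counts, 41 over the 4 copper libraries against 9 in SLA Ti, 20 in Turned Ti and 32 in Sham.

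CXCL9 and CXCL11, the other interferon-induced ligands of CXCR3, had too few counts for the test. CXCL9 had 2, 9, 6 and 5 counts in Turned Cu, 3, 2, 4 and 3 in SLA Ti, 2, 1, 1 and 6 in Turned Ti and 0, 0, 3 and 5 in Sham. As CPM, its copper libraries (0.287 to 1.76) lay above all SLA Ti (0.0658 to 0.229) and Sham libraries (0 to 0.201) and overlapped Turned Ti (0.0359 to 0.497). The ratio of CXCL9 counts per scaled library size was 6.99 for Turned Cu over Sham (95% interval 3.00 to 18.1, counting error only). In a fit without the filter on low counts it did not pass against Sham (adjusted p = 0.0521). CXCL11 had 4 counts in Turned Cu replicate 3 and 1 in Sham replicate 3, and none elsewhere. The genes of these ligands lie next to each other on chromosome 15, between 74344761 and 74401457.

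CX3CL1, a membrane-bound ligand of vessel walls that binds CX3CR1, did not pass in any comparison. It had 1, 0, 3 and 0 counts in Turned Cu and 6, 13, 16 and 7 in SLA Ti, 6, 9, 15 and 3 in Turned Ti and 10, 1, 4 and 10 in Sham. The homeostatic ligands CCL19 and CCL21, which call CCR7-bearing cells into lymphoid tissue, are neighbours on chromosome 1. CCL21 had no count in any Turned Cu library, against 14, 62, 2 and 6 counts in SLA Ti, 5, 6, 12 and 2 in Turned Ti and 7, 0, 3 and 9 in Sham. Set against a floor of 3 counts over the copper group, CCL21 was lower in Turned Cu by at least 8.10-fold against SLA Ti, 2.35-fold against Turned Ti and 2.49-fold against Sham. SLA Ti replicate 2 held 62 of the 84 SLA Ti counts. CCL19 went the other way in 2 copper libraries, with 2 counts in Turned Cu replicate 2 and 12 in replicate 3 and none in replicates 1 and 4. It had 3 counts over SLA Ti, 1 over Turned Ti and none over Sham, a level at least 11.9-fold higher in Turned Cu than a floor of 3 counts over the Sham libraries. Without the filter on low counts, CCL21 passed as lower in Turned Cu in all 3 copper comparisons (adjusted p = 0.00435 against SLA Ti, 0.0312 against Turned Ti and 0.034 against Sham), and CCL19 as higher against Turned Ti (0.0305) and Sham (0.0173) but not SLA Ti (0.12).

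The B cell attractant CXCL13 had 1 count over Turned Cu, 26 over SLA Ti, 7 over Turned Ti and 1 over Sham, and 22 of the SLA Ti counts came from replicates 3 and 4. CCL22 had 2 counts in Sham replicate 1 alone. CCL11, CCL20 and CXCL17 had no count in any of the 16 libraries.

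Among the receptors, CCR1 gave the smallest adjusted p-value in each copper comparison. It is carried by monocytes and neutrophils and binds several CC ligands, and lies on chromosome 9 from 14443034 to 14444089. Its level was 133, 72.6, 89.9 and 68.2 CPM in Turned Cu, 16.2, 5.86, 52.6 and 11.8 CPM in SLA Ti, 6.82, 4.97, 4.91 and 7.21 CPM in Turned Ti and 2.80, 6.05, 5.57 and 4.50 CPM in Sham. The copper libraries were above every other library, and SLA Ti replicate 3 was the nearest to them. CCR1 was higher in Turned Cu by a log2 fold change of 2.07 ± 0.50 against SLA Ti (SE, adjusted p = 0.00591), 3.93 ± 0.55 against Turned Ti (adjusted p = 6.11e-05) and 4.27 ± 0.56 against Sham (adjusted p = 3.01e-05), the last of these a 19.3-fold difference. Without SLA Ti replicate 3 the difference from SLA Ti was 2.90 ± 0.42 (adjusted p = 0.00013). With copper represented by replicates 2 and 4 alone, the pair that some of the authors' own deposited comparisons used, it was 1.40 ± 0.60 and did not pass (adjusted p = 0.119). Replicates 2 and 4 are the proximal copper sites and 1 and 3 the distal ones. Their scaling factors were 0.251 and 0.291, against 0.706 and 0.922 in replicates 1 and 3. In this setting, here and below, site position, scaling and the smaller number of libraries cannot be told apart.

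CXCR1, a receptor of neutrophils for neutrophil-attracting CXC ligands, was measured on chromosome 7 from 159539107 to 159540338. It had 102, 56.2, 91.4 and 87.4 CPM in Turned Cu, 9.36, 1.61, 126 and 27.97 CPM in SLA Ti, 0.938, 2.12, 0.359 and 8.04 CPM in Turned Ti and 0.0596, 0.673, 9.37 and 1.29 CPM in Sham. The copper libraries lay close together, while the SLA Ti libraries spread from the level of Turned Ti up to the highest value of the study, in replicate 3. CXCR1 was higher in Turned Cu by a log2 fold change of 4.93 ± 1.31 against Turned Ti (SE, adjusted p = 0.00625) and 4.86 ± 1.31 against Sham (adjusted p = 0.00618), in 4 of 4 rabbits each. Against SLA Ti the difference was 1.03 ± 1.11 (adjusted p = 0.518), in the same direction in 3 of 4 rabbits. Without SLA Ti replicate 3 it was 2.59 ± 1.17 and did not pass (adjusted p = 0.0975). In the authors' deposited table, CXCR1 in Turned Cu replicates 2 and 4 over Sham had a log2 fold change of 4.55 and a p-value of 1, whereas all 4 copper libraries gave 5.05 with a q-value of 9.52e-05.

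XCR1 marks, in mouse and human, the dendritic cells that present antigen to cytotoxic T cells. It had 1.15, 3.51, 2.55 and 0.516 CPM in Turned Cu, 0.0384, 0.0987, 0.514 and 0.152 CPM in SLA Ti, 0, 0.0492, 0.0717 and 0.332 CPM in Turned Ti and 0.238, 0.135, 0.184 and 0.442 CPM in Sham. All copper libraries were above all others, though Turned Cu replicate 4 exceeded SLA Ti replicate 3 only narrowly. The log2 fold change was 3.26 ± 0.85 against SLA Ti (SE, adjusted p = 0.00874), 4.33 ± 0.93 against Turned Ti (adjusted p = 0.00145) and 2.81 ± 0.84 against Sham (adjusted p = 0.0119). The call against Sham was lost without Turned Cu replicate 2 (2.33, adjusted p = 0.053) or replicate 3 (2.39, adjusted p = 0.0522), and with copper replicates 2 and 4 alone (2.56, adjusted p = 0.0839). The last setting also ended the call against SLA Ti (2.99, adjusted p = 0.067).

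CCR7, the receptor that takes dendritic cells and T cells to lymph nodes, had 2.58, 1.95, 1.91 and 3.10 CPM in Turned Cu. It had 0.576, 1.25, 0.617 and 1.30 CPM in SLA Ti, 0.356, 0.984, 0.574 and 0.166 CPM in Turned Ti and 0.715, 0.269, 1.78 and 1.93 CPM in Sham. The copper libraries were above all titanium libraries, while Turned Cu replicate 3 lay below the highest Sham library. CCR7 was higher in Turned Cu than in Turned Ti by 2.15 ± 0.57 on the log2 scale (SE, adjusted p = 0.00602), which no longer passed with copper replicates 2 and 4 alone (1.97, adjusted p = 0.0511). It did not pass against SLA Ti (1.35 ± 0.55, adjusted p = 0.0706) or Sham (adjusted p = 0.168).

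CX3CR1, the CX3CL1 receptor of patrolling monocytes and tissue macrophages, was among the genes lower beside copper. It had 0, 0, 2 and 0 counts in Turned Cu and 11, 15, 14 and 7 in SLA Ti, 9, 18, 42 and 2 in Turned Ti and 17, 3, 17 and 6 in Sham. Per scaled library size its 2 copper counts were 10.0-fold lower than Turned Ti (95% interval 2.68 to 84.4, counting error only) and 8.46-fold lower than Sham (2.21 to 72.1). CX3CR1 passed as lower in Turned Cu against Turned Ti (adjusted p = 0.0201) and Sham (adjusted p = 0.0245). These calls were lost without Turned Ti replicate 3 (adjusted p = 0.0733) and without Turned Cu replicate 1 (adjusted p = 0.0559). In the authors' deposited table, CX3CR1 in all 4 copper libraries over Sham had a q-value of 0.107. Against SLA Ti it was 6.80-fold lower (1.78 to 57.8) and did not pass (adjusted p = 0.0556), but it passed in 8 of 17 alternatives, among them rabbit as a block (adjusted p = 0.0272), DESeq2 (0.047), RLE scaling (0.0494) and no filter on low counts (0.0445).

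The receptors CXCR4, CXCR5 and CXCR6 did not pass in any copper comparison. CXCR4, which holds blood-forming cells in the marrow, had 24.8, 12.1, 14.0 and 7.40 CPM in Turned Cu, 37.4, 7.89, 19.2 and 21.9 CPM in SLA Ti, 16.9, 7.09, 4.05 and 23.2 CPM in Turned Ti and 3.22, 2.42, 13.8 and 5.35 CPM in Sham. The 4 groups overlapped. CXCR5, which leads B cells into follicles, ranged from 0.382 to 2.58 CPM in Turned Cu, 0.206 to 1.98 CPM in SLA Ti, 0.0970 to 1.33 CPM in Turned Ti and 0.135 to 0.683 CPM in Sham. CXCR6, carried by activated T cells, ranged from 0.287 to 2.07 CPM in Turned Cu, 0.230 to 0.991 CPM in SLA Ti, 0.0970 to 0.538 CPM in Turned Ti and 0.402 to 1.16 CPM in Sham. With rabbit as a block CXCR6 passed as higher in Turned Cu than in Turned Ti (log2 fold change 1.67 ± 0.64, adjusted p = 0.0497), where the fit without it gave 1.74 ± 0.72 (adjusted p = 0.0623) and a block with site position gave 1.54 ± 0.68 (adjusted p = 0.0907). Its gene model overlaps that of FYCO1.

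**Figure D3:**
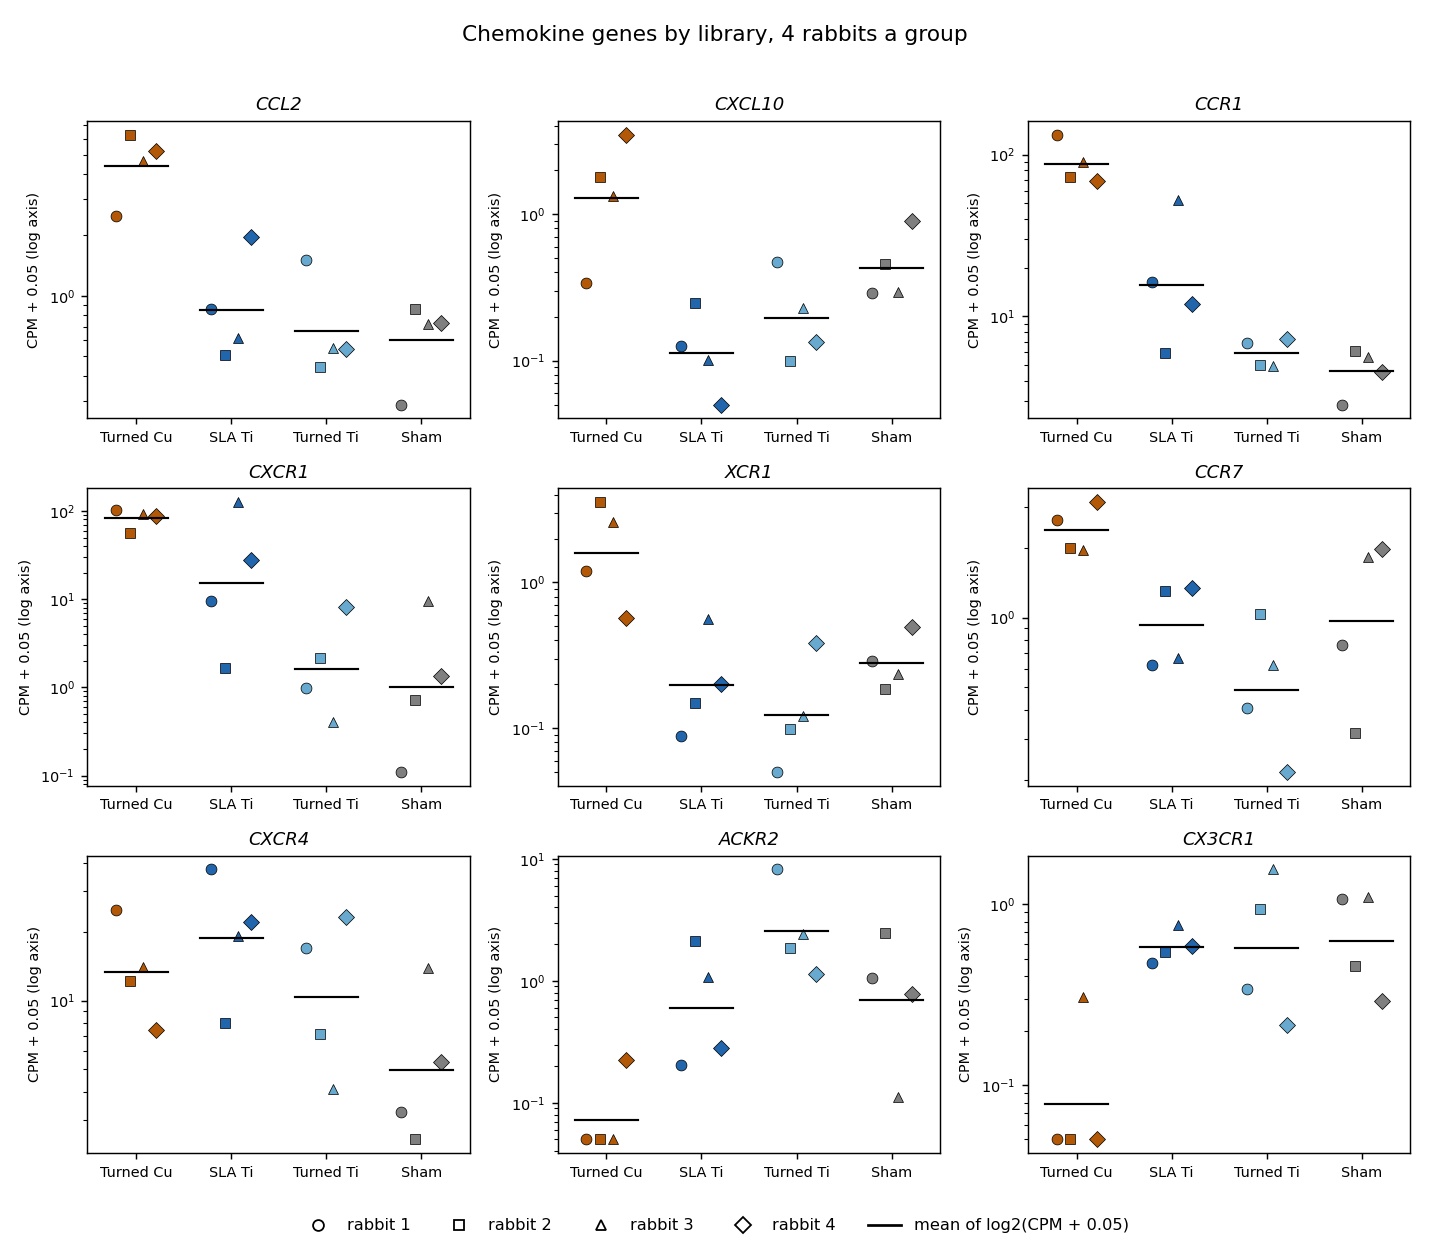
CPM + 0.05 on a log axis for 9 chemokine genes, 1 point a library, with Turned Cu, SLA Ti, Turned Ti and Sham from left to right, the rabbit shown by the symbol and the mean of log2(CPM + 0.05) by a line. CCL2, CCR1 and XCR1 separate Turned Cu from all other libraries, CXCR1 does so except for SLA Ti replicate 3, CXCR4 overlaps throughout, and ACKR2 and CX3CR1 have 3 of 4 copper libraries at 0.

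The other receptors had too few counts for the test, and calls named here come from the fit without the filter on low counts. CXCR3, the receptor of CXCL9, CXCL10 and CXCL11, had 0, 6, 6 and 2 counts in Turned Cu, 5, 4, 5 and 5 in SLA Ti, 1, 0, 0 and 1 in Turned Ti and 4, 0, 1 and 3 in Sham. That fit called CXCR3 higher in Turned Cu against Turned Ti (adjusted p = 0.0145) and not against SLA Ti (0.52) or Sham (0.177). Counts of CCR6 summed to 11 in Turned Cu, 8 in SLA Ti, 2 in Turned Ti and 4 in Sham. CCR8 summed to 5 in Turned Cu, 3 in SLA Ti, 3 in Turned Ti and 0 in Sham, and CCR10 to 5 in Turned Cu, 6 in SLA Ti, 0 in Turned Ti and 1 in Sham. CCR8 was called higher in Turned Cu against Sham alone (adjusted p = 0.0451) and CCR10 against Turned Ti alone (adjusted p = 0.041), on 5 copper counts each. CCR9 summed to 3 in Turned Cu, all of them in replicate 4, against 15 in SLA Ti, 8 in Turned Ti and 7 in Sham. At this depth no difference could be told from counting error for CCR9.

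ACKR2, the atypical receptor that takes up inflammatory CC ligands such as CCL2, was the tested member with the most negative log2 fold change in each copper comparison. It lies on chromosome 9 from 1450560 to 1462652. Its counts were 0, 0, 0 and 1 in Turned Cu, 4, 63, 20 and 3 in SLA Ti, 252, 37, 66 and 13 in Turned Ti and 17, 18, 1 and 18 in Sham. In CPM this is at most 0.172 in Turned Cu, against 0.153 to 2.07 in SLA Ti, 1.08 to 8.15 in Turned Ti and 0.0612 to 2.42 in Sham. The copper libraries were below all Turned Ti libraries and overlapped SLA Ti and Sham. Per scaled library size the single copper count was 104-fold lower than Turned Ti (95% interval 18.5 to 4116, counting error only), 26.0-fold lower than SLA Ti (4.56 to 1040) and 21.3-fold lower than Sham (3.66 to 855). ACKR2 passed as lower in Turned Cu against Turned Ti (adjusted p = 0.00232), SLA Ti (adjusted p = 0.045) and Sham (adjusted p = 0.0313). The call against Turned Ti held in every alternative run (highest adjusted p = 0.0468).

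The other ACKR2 calls depended on single libraries. Against Sham, ACKR2 no longer passed without Turned Cu replicate 1 (adjusted p = 0.0665), 2 (0.0579) or 3 (0.0672), or without Sham replicate 2 (0.0768). Against SLA Ti, ACKR2 no longer passed with rabbit as a block (adjusted p = 0.0544), without any 1 of the copper libraries (0.0557 to 0.0953) or without SLA Ti replicate 2 (0.122). ACKR3, a scavenger of CXC ligands, did not pass in any comparison. It had 4.74 CPM in Turned Cu replicate 1 and 0.255 to 0.689 CPM in the other copper libraries, against 0.806 to 2.36 CPM in SLA Ti, 1.13 to 1.43 CPM in Turned Ti and 0.918 to 1.61 CPM in Sham. ACKR4, which takes up CCL19 and CCL21, had no count in Turned Cu, 13 in SLA Ti, 16 in Turned Ti and 5 in Sham, and its gene model overlaps that of ACAD11. Pooled over rabbits, ACKR4 in Turned Cu was lower by at least 1.25-fold (SLA Ti) and 1.51-fold (Turned Ti), taking 3 copper counts as the floor. These pooled values leave out the spread between rabbits, and SLA Ti replicates 2 and 4 and Sham replicate 3 had no ACKR4 count either. Without the filter on low counts, ACKR4 did not pass against SLA Ti (adjusted p = 0.149), Turned Ti (0.0822) or Sham (0.209).

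**Figure D4:**
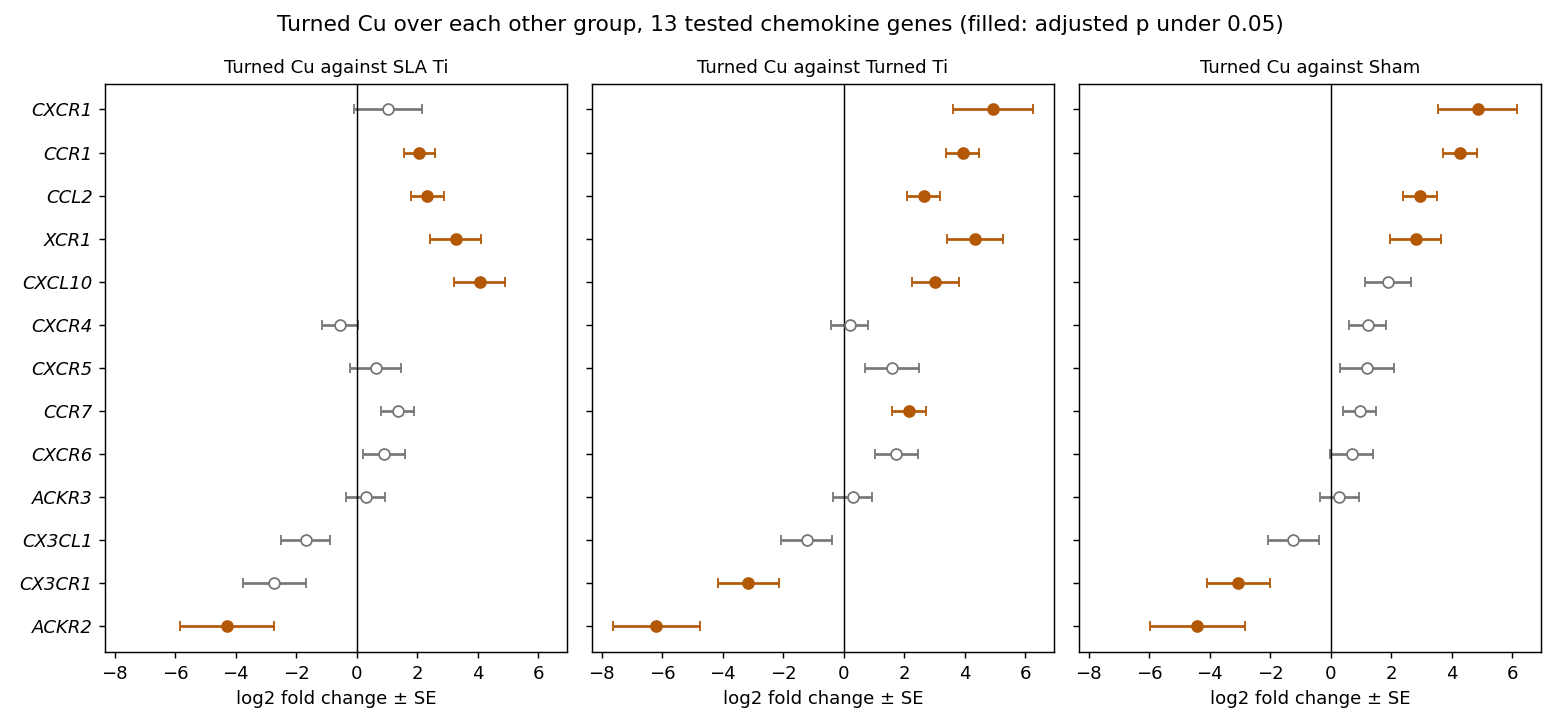
Log2 fold change with its SE for the 13 tested chemokine genes, Turned Cu over SLA Ti, Turned Ti and Sham from left to right, with filled points where the adjusted p was under 0.05. CCL2, CCR1 and XCR1 are filled to the right of 0 and ACKR2 to the left in all 3 panels, while CXCR1 is filled against Turned Ti and Sham and lies at 1.03 against SLA Ti.

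A further 6 chemokine genes carry no symbol in the gene table and are named only by its description, so they are not members, and 5 of them were tested. CCL4, a ligand made by activated macrophages and neutrophils, had 511, 167, 337 and 452 CPM in Turned Cu, 0.614, 0.296, 114 and 9.83 CPM in SLA Ti, 0.388, 0.0984, 0.251 and 0.663 CPM in Turned Ti and 0.179, 0.135, 0.429 and 0.201 CPM in Sham. Copper libraries were above all others, and SLA Ti replicate 3 was next. The log2 fold change of CCL4 was 3.56 ± 1.18 against SLA Ti (SE, adjusted p = 0.0302), 10.08 ± 1.61 against Turned Ti (adjusted p = 0.000165) and 10.51 ± 1.66 against Sham (adjusted p = 0.000113). Without SLA Ti replicate 3 it was 6.59 ± 1.07 against SLA Ti (adjusted p = 0.00032). That call was lost without Turned Cu replicate 1 (3.15, adjusted p = 0.0775), 3 (3.39, 0.0615) or 4 (3.30, 0.0623) and without SLA Ti replicate 2 (2.98, 0.0521) or 4 (3.09, 0.0971), and in 3 further alternatives, the weakest of them copper replicates 2 and 4 alone (3.00, 0.144).

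CXCR2, whose sequence resembles that of CXCR1, lies 37911 bp from it. Like CXCR1, CXCR2 was high in Turned Cu and in SLA Ti replicate 3. It had 111, 64.4, 97.7 and 67.8 CPM in Turned Cu and 16.7, 1.88, 80.2 and 19.0 CPM in SLA Ti. In Turned Ti it had 1.94, 1.92, 0.359 and 10.6 CPM, and in Sham 0.417, 0.404, 10.0 and 1.29 CPM. Against SLA Ti the log2 fold change of CXCR2 was 1.53 (adjusted p = 0.275), and 2.67 ± 1.11 without SLA Ti replicate 3 (adjusted p = 0.0721). Reads of CXCR1 and CXCR2 may be split between the 2 genes, so that their values are not independent. CCL14, a ligand found in plasma, went the other way and was lower in Turned Cu against SLA Ti (log2 fold change -1.60 ± 0.52, adjusted p = 0.0278) and Sham (-1.42 ± 0.52, adjusted p = 0.0365). The call against Sham was lost with rabbit as a block (adjusted p = 0.062) and without Turned Cu replicate 1 (0.0633) or 4 (0.0681) or Sham replicate 4 (0.0846). The call of CCL14 against SLA Ti was lost without Turned Cu replicate 1 (adjusted p = 0.058) or 4 (0.0554) or SLA Ti replicate 1 (0.0856). In the authors' deposited table, CCL14 in all 4 copper libraries over Sham had a q-value of 0.0564.

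Genes that act below the receptors moved in the same comparisons. Of 26 tested genes of chemokine receptor signalling, 21 were higher, 2 were lower and 3 did not pass in Turned Cu against Sham (median log2 fold change 1.89, against -0.06 over all tested genes). VAV1, an exchange factor that drives actin assembly, was higher by 3.97 ± 0.44 (adjusted p = 1.42e-05), PIK3R5, a subunit of the lipid kinase that G proteins switch on, by 5.47 ± 0.64 (adjusted p = 1.78e-05) and the kinase LYN by 3.03 ± 0.41 (adjusted p = 4.03e-05). RGS3, which shortens G protein signals, was lower (-2.24 ± 0.29, adjusted p = 2.7e-05). Against Turned Ti 17 of these genes were higher and 2 lower, and against SLA Ti 11 were higher and 1 lower. With copper replicates 2 and 4 alone 12 were higher and 2 lower against Sham. The counts were 8 and 2 against Turned Ti, and 3 and 1 against SLA Ti. Calls over all 12375 genes tested there also fell, to 1593 higher and 2099 lower against Sham. They were 1314 and 1966 against Turned Ti, and 634 and 1507 against SLA Ti. Against SLA Ti the signalling counts were 13 higher and 2 lower without SLA Ti replicate 3 (1824 and 2225 over all genes). They were 6 and 4 with libraries scaled only to counts outside ribosomal RNA and mitochondrial genes (848 and 3604). They were 6 and 3 without the filter on low counts (1672 and 2321). Without the 3 libraries of most ribosomal RNA they were 3 and 2 (962 and 1856). The all-gene counts also apply to the SLA Ti comparisons of the lists that follow. Whether the lists changed more than all genes did was not tested.

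Among 14 tested genes of other attractants and their receptors, 8 were higher, 1 was lower and 5 did not pass in Turned Cu against Sham, with a median of 1.92. Against Turned Ti the counts were also 8, 1 and 5, and against SLA Ti 3 were higher, 1 was lower and 10 did not pass. Against SLA Ti, 4 were higher and 1 lower without SLA Ti replicate 3, 1 and 2 under the scaling outside ribosomal RNA and mitochondrial genes, 1 and 1 without the 3 libraries of most ribosomal RNA, and 0 and 1 with copper replicates 2 and 4 alone. PTAFR, the receptor of platelet-activating factor, was higher by 4.23 ± 0.65 (adjusted p = 9.75e-05) and C5AR1, the complement C5a receptor, by 2.84 ± 0.52 (adjusted p = 0.000371). S1PR1, through which lymphocytes leave tissue and which vessel walls also carry, was lower (-3.07 ± 0.41, adjusted p = 3.8e-05). Of 17 listed inducers of chemokine genes, 14 were in the gene table and 10 were tested. Only 8 were tested where Turned Ti and Sham, or SLA Ti and Sham, were fitted alone. Some of the 10 may therefore have met the filter on low counts only through the copper libraries. IFNB1 and IL17A had no count in Turned Cu. All 10 tested inducers were higher in Turned Cu against Sham (median 3.51). Among them were IRF1 (4.54 ± 0.59, adjusted p = 2.87e-05), REL (2.87 ± 0.39, adjusted p = 4.15e-05) and NFKB2 (2.82 ± 0.40, adjusted p = 5e-05). These are transcription factors that act after interferon or NF-kB signals. The same 10 were higher against Turned Ti, and 8 of them against SLA Ti. In that last comparison 9 of the 10 were called higher without SLA Ti replicate 3, 5 under the scaling outside ribosomal RNA and mitochondrial genes, 5 without the 3 libraries of most ribosomal RNA and 2 with copper replicates 2 and 4 alone. The inducers summed to 1184 CPM in SLA Ti replicate 3 and 86.9 to 199 CPM in the other SLA Ti libraries.

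Among the 2 titanium groups and Sham, no chemokine gene passed, and neither did any of the 11617 genes (0% in each of the 3 comparisons by edgeR). At an unadjusted p under 0.05 stood 1660 genes (14.3%) in SLA Ti against Sham, 1048 (9.02%) in SLA Ti against Turned Ti and 290 (2.5%) in Turned Ti against Sham. CCR1 was the member of smallest p in SLA Ti against Sham, with a log2 fold change of 2.198 ± 0.51 (adjusted p = 0.104) and higher values in 3 of 4 rabbits. DESeq2 called CCR1 (2.14, adjusted p = 0.00587), in a fit that called 298 genes higher and 18 lower of 11577. The fit without the filter on low counts called it too (adjusted p = 0.0225), with 190 genes higher and 5 lower of 21245. So did the fit without SLA Ti replicate 2 (2.51, adjusted p = 0.0292), with 197 higher and 1 lower of 11927. Without SLA Ti replicate 3 the difference of CCR1 was 1.22 (adjusted p = 0.394). Against Turned Ti the difference of CCR1 in SLA Ti was 1.85 ± 0.50 (adjusted p = 0.248). DESeq2 called it (1.83, adjusted p = 0.0458), in a fit that called 101 genes higher and 4 lower. Without SLA Ti replicate 3 it was 0.90 (adjusted p = 0.811). CCL4, not a member, was also called by DESeq2 in SLA Ti against Sham (6.98, adjusted p = 0.000104) and Turned Ti (6.46, adjusted p = 0.000306). By edgeR without SLA Ti replicate 3, CCL4 was at 3.78 (adjusted p = 0.358) and 3.37 (adjusted p = 0.811). CXCR1 in SLA Ti against Sham had 3.83 ± 1.25 (adjusted p = 0.17), or 2.16 without SLA Ti replicate 3 (adjusted p = 0.537). CXCL10 was lower in all SLA Ti libraries than in all Sham libraries, as were 3.65% of all tested genes, and did not pass (-2.17 ± 0.84, adjusted p = 0.238). In Turned Ti against Sham, CCR7 alone had an unadjusted p under 0.05 (-1.19 ± 0.55, adjusted p = 1).

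Marker lists of white blood cells were read beside the receptors, and their members differed among themselves. In scraped tissue, more cells of a type and more RNA per cell cannot be told apart. The background to the counts below is that 23.2% of all tested genes were higher and 19.6% lower in Turned Cu against Sham. Of 13 tested neutrophil markers 8 were higher in Turned Cu than in Sham, none was lower and 5 did not pass, and their summed level was 2079 to 4132 CPM in Turned Cu, 585 to 3607 CPM in SLA Ti, 369 to 1552 CPM in Turned Ti and 332 to 764 CPM in Sham. Copper replicates 2 and 4 alone gave 3 higher and none lower, and scaling only to counts outside ribosomal RNA and mitochondrial genes gave 4 higher and 3 lower, while leaving out the 3 libraries of most ribosomal RNA gave 4 higher and 1 lower. CXCR1 and the summed neutrophil markers were both lowest in Sham replicate 1, at 0.0596 and 332 CPM, and both high in SLA Ti replicate 3. The 5 that did not pass were the granule genes MPO (-2.81), CAMP (-2.59), MMP8 (-2.62), MMP9 (-1.36) and LTF (0.32), named after their values were seen, and MPO, CAMP and MMP8 passed as lower in Turned Cu against both SLA Ti and Turned Ti. Of 11 tested monocyte and macrophage markers 4 were higher (CD68, CD14, MSR1 and LYZ), none was lower and 7 did not pass, with summed levels of 679 to 1109 CPM in Turned Cu, 191 to 401 CPM in SLA Ti, 179 to 307 CPM in Turned Ti and 128 to 195 CPM in Sham. With libraries scaled only to counts outside ribosomal RNA and mitochondrial genes, the monocyte and macrophage list had 3 higher and 3 lower and its median changed sign (-0.27, against 0.39).

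Stromal and bone-forming markers were lower in 11 of 12 tested genes in Turned Cu against Sham, and endothelial markers were lower in 7 of 10 and higher in 2 (PECAM1, which white blood cells also carry, and KDR, named after its value was seen). The summed endothelial level was 541 to 1093 CPM in Turned Cu, 121 to 479 CPM in SLA Ti, 111 to 160 CPM in Turned Ti and 117 to 264 CPM in Sham. The median log2 fold change of the list against Sham was -3.98, so its sum went against most of its genes. A sum follows the most abundant genes of a list, and this limit holds for every summed level given here. CLEC14A and STAB2, endothelial markers, had no count in any copper library, as had the member CCL21. Dendritic cell markers summed to 13.0 to 25.3 CPM in Turned Cu, 3.08 to 5.79 CPM in SLA Ti, 2.58 to 8.21 CPM in Turned Ti and 2.57 to 4.83 CPM in Sham, with 1 of 2 tested genes higher against Sham (CD83). T and NK cell markers were higher in 2 of 5 tested genes (CD5 and CD4) and summed to 8.32 to 17.2 CPM in Turned Cu, 2.90 to 10.7 CPM in SLA Ti, 0.938 to 4.64 CPM in Turned Ti and 1.62 to 6.18 CPM in Sham. B cell markers were lower in 1 of 4 tested genes (EBF1), platelet markers in 1 of 2 (ITGA2B), and none of 4 eosinophil and mast cell or 2 muscle markers passed. Of all tested genes, 23.2% were higher and 19.6% lower in Turned Cu against Sham. Beside those shares, 1 or 2 calls in lists this short say little about a cell type. Epithelial markers stayed at or below 0.968 summed CPM in every library. Against SLA Ti, 2 neutrophil markers were higher, 3 lower and 8 did not pass (median -0.21, or 0.53 without SLA Ti replicate 3), and 3 monocyte and macrophage markers were higher, 3 lower and 5 did not pass (median 0.01, or -0.11 without that library). In that comparison 15.3% of all tested genes were higher and 15.7% lower. What part these cell types have in the chemokine values was not tested.

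**Figure D5:**
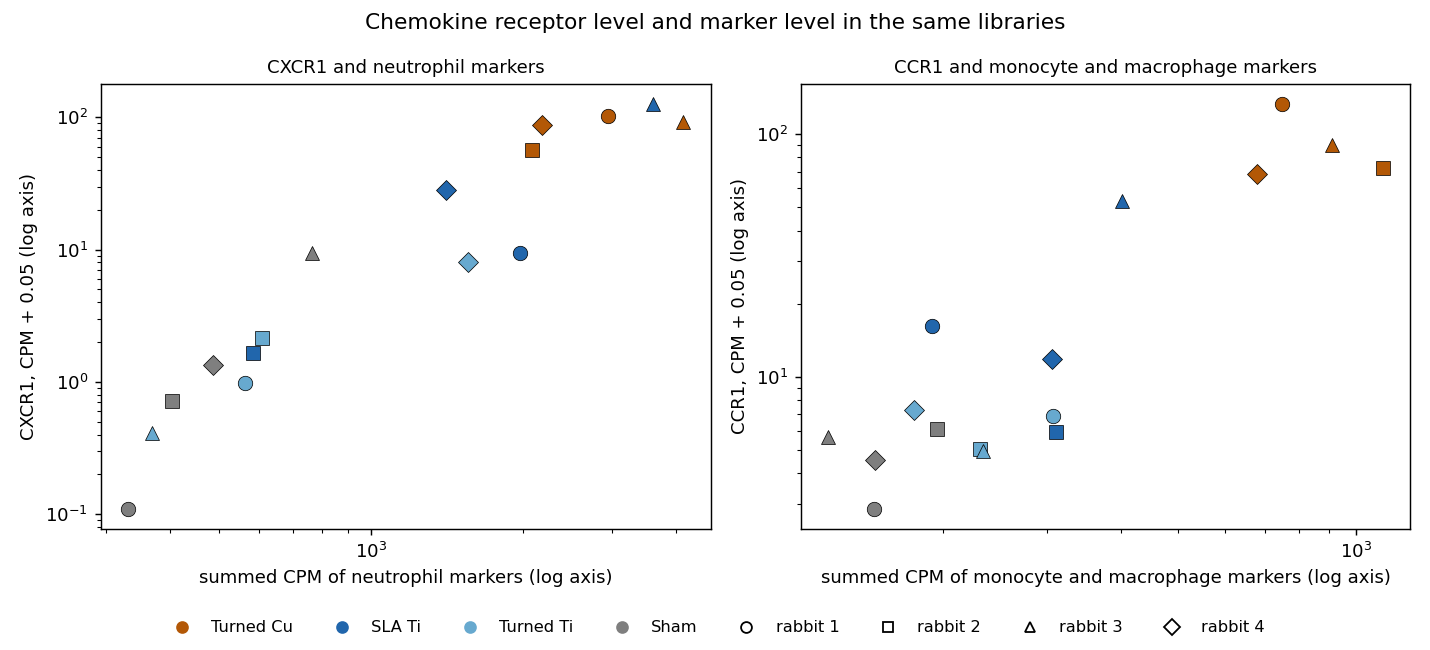
CXCR1 against the summed CPM of 13 neutrophil markers (left) and CCR1 against the summed CPM of 12 monocyte and macrophage markers (right), 1 point a library on log axes, with the group shown by colour and the rabbit by symbol. On the left SLA Ti replicate 3 lies within the copper range of summed neutrophil markers (3607 CPM) and above all copper libraries in CXCR1 (126 CPM). On the right it lies between the copper libraries and the rest, with CCR1 at 52.6 CPM.

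The copper libraries differ from the others in so many genes that the scaling matters. With libraries scaled only to their counts outside ribosomal RNA and mitochondrial genes, the median log2 fold change of all genes in Turned Cu was -0.65 against SLA Ti, -0.77 against Turned Ti and -0.70 against Sham, where TMM gave -0.02, -0.10 and -0.06. Against Sham that scaling called 1682 genes higher and 4116 lower, where TMM gave 2695 and 2273. The members named above as called kept their direction under each scaling run in which they were tested, and XCR1 did not reach the count filter in this one and in some of the other alternatives.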

How the data were processed

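Tissue RNA of 16 rabbit tibia sites was sequenced as stranded total RNA, per the labels' protocols. The submitters' processing notes name STAR 2.7.1a and Cufflinks 2.2.1, with no role given. The estimated counts, RPKM and TPM per gene are the authors' deposited values, whole-numbered for the counts. The RPKM were read only to find 191 values above 0 with a count of 0, none of them in a chemokine gene. The log2 fold changes, p-values and q-values of the authors' comparisons were deposited without the test being named in the sources used here.

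Genes kept by filterByExpr (minimum count 10) were tested with edgeR 4.0.16 in R 4.3.3, by the quasi-likelihood test over all 16 libraries with TMM scaling and Benjamini-Hochberg adjustment (common dispersion 0.206, 12 residual degrees of freedom). DESeq2 1.42.0 was an alternative. The procedure was tested on simulated data with few changed genes and no effect of the rabbit. That test therefore does not cover comparisons in which a large share of genes differ, as with copper. Intervals are exact 95% intervals of counts and cover counting error only, and floors are 3 counts. The members, the gene lists and the tests were chosen with earlier results of these data known. Every member may be named, and of each list at most 4 genes a comparison by smallest p, with exceptions marked in the text.

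Replicate numbers are rabbits, so they pair the libraries by animal. The mean correlation of deviations from the group means within a rabbit was 0.0469 to 0.119 over 6 pairs each (single pairs -0.167 to 0.316). No 2 libraries held identical values. Tables of the numbers of changed genes and transcripts were not used here, and no sequences are shown. Results for some genes are not reported here.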

Additional observations from a re-analysis of the deposited data

Results flagged for a closer look

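In 5 of 52 groups of 4 libraries, 1 library stood apart from the other 3 by Dixon's criterion on log2 CPM (prior count 2). For continuous values without ties, chance alone flags about 1 of 20 groups. That rate does not hold for ACKR2 and CX3CR1 in Turned Cu. There 3 libraries tie at 0 counts, so any count in the remaining library is flagged. ACKR2 was at 0.172 CPM in Turned Cu replicate 4 and at 0 in the other copper libraries, a difference of a single count. CX3CR1 was at 0.255 CPM (2 counts) in Turned Cu replicate 3 and at 0 in the others. CCL2 was at 1.46 CPM in Turned Ti replicate 1, against 0.394 to 0.502 CPM in the other Turned Ti libraries. CCL2 was at 0.238 CPM in Sham replicate 1, against 0.674 to 0.807 CPM in the other Sham libraries. CXCR5 was at 0.135 CPM (1 count) in Sham replicate 2, against 0.551 to 0.683 CPM in the others.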

How the results depend on the processing

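The number of tested chemokine genes called was 5 in Turned Cu against SLA Ti, 8 against Turned Ti and 6 against Sham. Fitting only the 2 groups compared gave 3, 5 and 4, and copper replicates 2 and 4 alone gave 3, 9 and 5. The fit without a filter on low counts gave 7, 12 and 9, over more members than the 13 tested in the main fit. Calls over all genes moved too. The 2-group fits called 1361 genes higher and 1272 lower of 9641 against SLA Ti. They called 1882 and 1914 of 10078 against Turned Ti and 2204 and 2183 of 9572 against Sham. Without the filter it was 1672 and 2321 of 21245 against SLA Ti, 2912 and 2971 against Turned Ti and 2858 and 2866 against Sham. The all-gene calls for copper replicates 2 and 4 alone are given with the signalling genes. Leaving out 1 library at a time gave 4 to 7 against SLA Ti, 7 to 10 against Turned Ti and 4 to 8 against Sham. Over all genes these fits called 916 to 1824 higher and 1465 to 2225 lower against SLA Ti. The all-gene calls were 1866 to 2258 and 1943 to 2668 against Turned Ti, and 2103 to 2484 and 2162 to 2706 against Sham. In SLA Ti against Sham leaving out 1 library gave 0 to 1 (CCR1), beside 0 to 197 genes higher and 0 to 1 lower over all genes. It gave 0 in SLA Ti against Turned Ti (0 to 35 and 0 to 1 over all genes) and in Turned Ti against Sham (0 over all genes). DESeq2 called 1 member (CCR1) in SLA Ti against Sham, beside 298 genes higher and 18 lower over all genes. It called 1 in SLA Ti against Turned Ti (101 and 4 over all genes). The fit without a filter called 1 in SLA Ti against Sham (190 and 5 over all genes). With rabbit as a replicate block the copper counts were 5, 9 and 6, and the titanium counts 0. Over all genes the block gave 1859 higher and 1801 lower against SLA Ti, 2391 and 2241 against Turned Ti and 2643 and 2232 against Sham. Scaling only to counts outside ribosomal RNA and mitochondrial genes called 848 genes higher and 3604 lower against SLA Ti (1776 and 1822 by TMM) and 1495 and 4351 against Turned Ti (2451 and 2277 by TMM). No chemokine gene named with a fold change reversed, while list medians of neutrophil and of monocyte and macrophage markers changed sign under some alternatives (neutrophil markers in Turned Cu against SLA Ti -0.21, and 0.30 with the block). The cause of the changes was not tested. Depth limits the genes at few counts, where 1 copper count is worth up to 0.195 CPM. The alternatives with copper replicates 2 and 4 alone, without the 3 libraries of most ribosomal RNA and with this scaling were chosen after seeing the data.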
